A study of Homo sapiens with 6 samples.

Results

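RAB17, RAB11FIP4 and TRIM29 are 3 genes of membrane trafficking or epithelial identity whose RNA was lower in H1975 cells expressing HER2 S310F than in H1975 cells with an empty vector. They were selected by name from the 107 genes of the authors' deposited table, and their low values in HER2 S310F cells were known when they were chosen. Their differences between the groups are therefore given as a description, with standard errors and without a test.

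RNA-seq data of 6 samples in 2 groups were analyzed, and both groups derive from 1 parental line, H1975, which was established from a human lung adenocarcinoma and carries mutated EGFR. The EV cells (3 samples) carry the empty lentiviral vector, and S310F cells (3 samples) stably express HA-tagged HER2, the receptor tyrosine kinase encoded by ERBB2, with the extracellular S310F substitution. Both lines were made by lentiviral infection and puromycin selection, and neither group expresses introduced wild-type HER2, so the substitution and the raised HER2 level cannot be told apart. The labels do not say whether the 3 samples of a group were separate cultures. The study's methods speak of independent experiments for its data in general and not for the sequencing in particular, so the spread between samples may be technical.

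The small GTPase RAB17 is found mainly in epithelial cells, where it acts on apical recycling endosomes and in transcytosis, the transport of cargo across a polarized cell. RAB11FIP4 is an effector of the RAB11 GTPases, which return internalized receptors and membrane from recycling endosomes to the cell surface. TRIM29, also called ATDC, is a member of the tripartite motif family that lacks the RING domain, and it is abundant in basal and squamous epithelia.

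The authors scaled each read count by the size factor of its sample. A single read was worth between 0.919 and 1.09 units across the 6 samples, and values are thus nearly numbers of reads. The table holds few low values from which to check this step, so the reads, counting intervals and counting SDs given here rest on the step found in these 107 genes. The listed genes held 25629 to 36072 reads per sample, and the library totals are not known. ERBB2 rose from 821 ± 53.0 in EV to 15064 ± 1306 in S310F samples (SD, n = 3 each), in the direction of the labels. S310F replicate 3 stood apart from the other S310F samples. The listed genes of replicate 3 differed from those of replicates 1 and 2 with a chi-square per degree of freedom of 19.2 and 17.1, against 5.79 between replicates 1 and 2 and 2.75 to 5.16 between EV samples. Replicate 3 had the highest value of the 3 S310F samples in 53 of the 66 genes listed as lower in S310F cells, and the lowest in 32 of the 41 genes listed as higher. Of 18 markers of lung epithelium, only SLC34A2 was listed, so the labelled cell type could not be checked from the table. None of 8 fibroblast or 6 endothelial markers was listed, and 1 of 10 blood cell markers was, CD14. In bulk RNA, fewer cells expressing a gene and less RNA per cell cannot be told apart.

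RAB17 was the most highly expressed of the 3 genes per kilobase of exon, and its RNA in S310F cells was 27.7% of the EV mean. The gene (ENSG00000124839) lies on chromosome 2 at 237574322 to 237601614 of GRCh38, on the minus strand, with 4783 exon bases in 11 transcripts, 5 of them protein coding. Only 74 of these bases (1.55%) are shared with another annotated gene, the antisense RNA AC104667.2, and no part of its longest transcript aligned to other genes. The RefSeq promoter table held RAB17 and neither RAB11FIP4 nor TRIM29. The RAB17 window (GRCh38.p14, chr2:237590685-237590984, minus strand) takes 250 bases before and 50 after the RefSeq start. It lies entirely in an untranslated exon of 2 GENCODE transcripts, the first of which starts 359 bases further upstream. The window held 3 matches to CAGGTG on either strand, the E-box bound by the ZEB and SNAI repressors of epithelial genes. The matches are shown because ZEB and SNAI factors are known for repression of epithelial genes, with the E-box in capitals, named by the position of its first base relative to the RefSeq start.
RAB17 -78 (chr2:237590797-237590822, E-box as written): cggcagcgcgCAGGTGctcccgggtc
RAB17 -63 (chr2:237590782-237590807, E-box as the reverse complement): gctcccgggtCACCTGctttgaggtc
RAB17 -29 (chr2:237590748-237590773, E-box as written): tgccctgcctCAGGTGaccacatgac

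The first and the second stretch overlap. Of 35116 RefSeq promoter windows of the same length, 20.6% held at least 1 match to this motif and 0.635% held 3 or more, a count chosen after the RAB17 window had been read. Among the 56 windows of genes listed as lower in S310F cells, 10 held a match (17.9%), and RAB17 was the 1 gene with 3. The other motifs, also read on both strands, had no match in the RAB17 window. The grainyhead-like motif AACNNGTT was in 3.52% of all windows. The AP-1 motif TGANTCA was in 7.71% of them. The SP/KLF motif GGGCGG was in 45.0% of them. The TATA box TATAAA was in 11.5% of them. The RAB17 window held 7 CG dinucleotides against a median of 14 over all windows. A match is a string of letters and not a measured site, and no binding was measured here.

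RAB17 had deposited values of 154, 175 and 158 in the EV samples, in the order of replicates 1 to 3, and of 25.7, 39.1 and 70.0 in the S310F samples. The groups did not overlap, since the lowest EV value was 2.20 times the highest S310F value. Of the 107 listed genes, all selected as changed, 66 (61.7%) had every S310F value below every EV value. The coefficient of variation was 6.94% among EV samples and 50.5% among S310F samples, with replicate 3 highest and replicate 1 lowest. These values rest on 153, 182 and 154 reads in EV and on 28, 40 and 64 reads in S310F samples. The exact Poisson 95% interval, which covers counting error only, was 17.1 to 37.2 for S310F replicate 1 and 53.9 to 89.4 for replicate 3, so these 2 samples differed beyond counting error. Counting alone would give an SD of 6.80 in the S310F group, and the SD was 22.7. In EV the SD of 11.3 was no larger than the 12.7 that counting gives. The mean was 163 ± 11.3 in EV and 45.0 ± 22.7 in S310F (SD, n = 3 each), 3.62-fold lower. Without S310F replicate 3 it was 5.01-fold lower. The log2 fold change, taken on log2(value + 1), was -1.95 with a standard error of 0.341. The standard errors given here, from limma, take the same spread for both groups. For RAB17 the SD on this scale was 0.098 in EV and 0.708 in S310F samples. The spread of each gene is also moved towards that of the listed genes, all selected as changed.

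**Figure D1:**
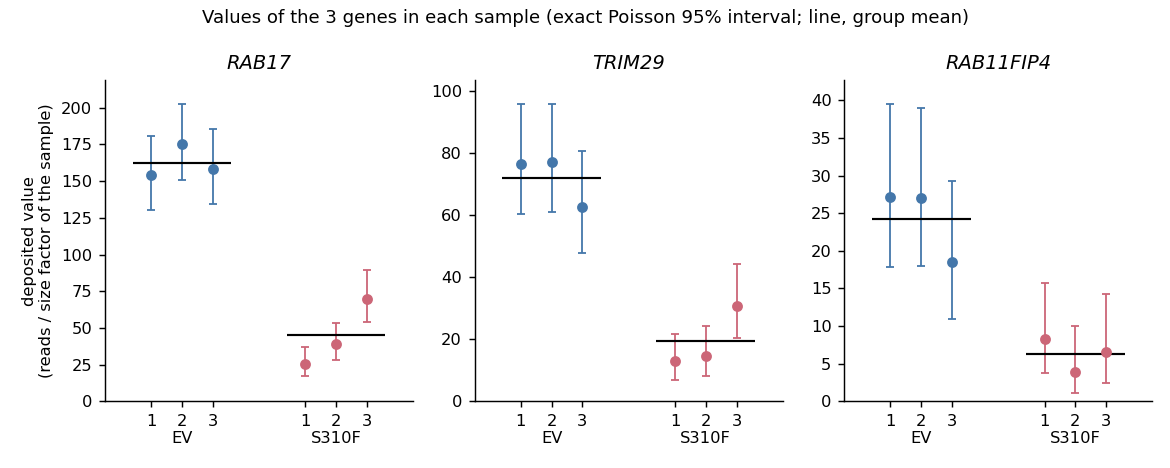
Deposited value (reads divided by the size factor of the sample) of RAB17, TRIM29 and RAB11FIP4 in EV and S310F replicates 1 to 3, with exact Poisson 95% intervals as error bars and the group mean as a black line. Every S310F point lies below every EV point of the same gene, as in 66 (61.7%) of the 107 listed genes. S310F replicate 3 is the highest of its group for RAB17 (70.0) and TRIM29 (30.6) but not for RAB11FIP4 (6.57).

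TRIM29 showed nearly the same profile as RAB17 at a lower level, with an S310F mean of 26.9% of the EV mean. The gene (ENSG00000137699) lies on chromosome 11 at 120111275 to 120185529, on the minus strand, with 10218 exon bases in 21 transcripts, 10 of them protein coding. It shares no exon bases with other annotated genes and its longest transcript aligned to none. Its deposited values were 76.5, 77.1 and 62.7 in EV cells and 12.9, 14.7 and 30.6 in S310F cells, in replicate order. Every S310F value lay below every EV value, as in 61.7% of the listed genes. The lowest EV value was 2.05 times the highest S310F value. S310F replicate 3 again stood above the other S310F samples, which lay close together. The reads behind these values were 76, 80 and 61 in EV and 14, 15 and 28 in S310F samples. The intervals of S310F replicates 1 (7.04 to 21.6) and 3 (20.4 to 44.3) overlapped slightly. The SD of the S310F group was 9.78 against 4.46 from counting alone, and that of EV was 8.16 against 8.48. The mean was 72.1 ± 8.16 in EV and 19.4 ± 9.78 in S310F (SD, n = 3 each), 3.72-fold lower, and 5.24-fold lower without S310F replicate 3. The log2 fold change was -1.94 with a standard error of 0.324.

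RAB11FIP4 had the lowest level of the 3 genes and the fewest reads, and its S310F mean was 25.8% of the EV mean. The gene (ENSG00000131242) lies on chromosome 17 at 31391624 to 31538217, on the plus strand, with 15383 exon bases in 11 transcripts, 4 of them protein coding. Of its exon bases 857 (5.57%) are shared with AC003101.3 on the opposite strand and MIR4724 on the same strand, and 8.90% of its longest transcript aligned to AC003101.3. The strand setting of the counts is not given in the sources used here, so reads of these genes may be among those of RAB11FIP4. Its deposited values were 27.2, 27.0 and 18.5 in EV cells and 8.27, 3.91 and 6.57 in S310F cells, in replicate order. Every S310F value lay below every EV value, as in 61.7% of the listed genes. The lowest EV value was 2.24 times the highest S310F value. S310F replicate 1 was highest and replicate 2 lowest. These values rest on 27, 28 and 18 reads in EV and on 9, 4 and 6 reads in S310F samples, and the interval of S310F replicate 1 (3.78 to 15.7) overlapped that of EV replicate 3, whose value was 18.5. The SD was 4.96 in EV and 2.20 in S310F, against 4.91 and 2.49 from counting alone, so an order among the S310F replicates was not detectable at this depth. The mean was 24.2 ± 4.96 in EV and 6.25 ± 2.20 in S310F (SD, n = 3 each), 3.88-fold lower, and 3.98-fold lower without S310F replicate 3. The log2 fold change was -1.83 with a standard error of 0.293, and it was -1.07 when 10 was added to each value in place of 1. In the fit with a mean-variance trend, which lets the spread depend on the level, the standard error was larger, 0.445.

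Levels of the 3 genes can be set side by side per kilobase of exon. RAB17 had 34.0 ± 2.36 units per kilobase in EV and 9.40 ± 4.75 in S310F samples (SD, n = 3 each). TRIM29 had 7.06 ± 0.799 in EV and 1.90 ± 0.957 in S310F samples. RAB11FIP4 had 1.57 ± 0.322 in EV and 0.406 ± 0.143 in S310F samples. The order RAB17, TRIM29, RAB11FIP4 was the same in each of the 6 samples, since the smallest ratio between neighbours in any sample was 4.27 for RAB17 over TRIM29 and 2.34 for TRIM29 over RAB11FIP4.

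The co-variation of the 3 genes was described sample by sample, since 3 samples per group allow no correlation within a group. On the log2(value + 1) scale, RAB17 deviated from its own S310F mean by -0.66, -0.08 and 0.74 in replicates 1 to 3. TRIM29 deviated by -0.46, -0.28 and 0.73. RAB17 and TRIM29 thus both had replicate 3 far above the other two. RAB11FIP4 deviated by 0.40, -0.51 and 0.11, which is within its counting error, so whether it varied with RAB17 and TRIM29 among S310F samples was not detectable at this depth. In EV cells the deviations were smaller, from -0.07 to 0.11 for RAB17, from -0.19 to 0.10 for TRIM29 and from -0.35 to 0.18 for RAB11FIP4. TRIM29 and RAB11FIP4 were both lowest in EV replicate 3, and RAB17 was lowest in EV replicate 1. The per-kilobase level of RAB17 was 4.30, 4.86 and 5.39 times that of TRIM29 in the EV samples and 4.27, 5.70 and 4.88 times in the S310F samples, so the ranges of this ratio overlapped between the groups. The ratio of RAB17 to RAB11FIP4 ranged more widely, from 18.2 to 27.5 in EV and from 10.0 to 34.3 in S310F samples.

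As a percentage of its EV mean, RAB17 stood at 15.8, 24.1 and 43.1 in S310F replicates 1 to 3, TRIM29 at 17.9, 20.3 and 42.5, and RAB11FIP4 at 34.2, 16.1 and 27.1. The median of all 66 genes listed as lower was 33.1, 32.3 and 50.9. RAB17 and TRIM29 were below this median in each S310F sample, and RAB11FIP4 in replicates 2 and 3. The higher level of RAB17 and TRIM29 in replicate 3 thus moved with that of most genes listed as lower in the same sample, and ERBB2 had its highest value there as well (16366, against 15074 and 13753 in replicates 1 and 2). The part of this sample's state in the levels of the 3 genes was not tested.

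**Figure D2:**
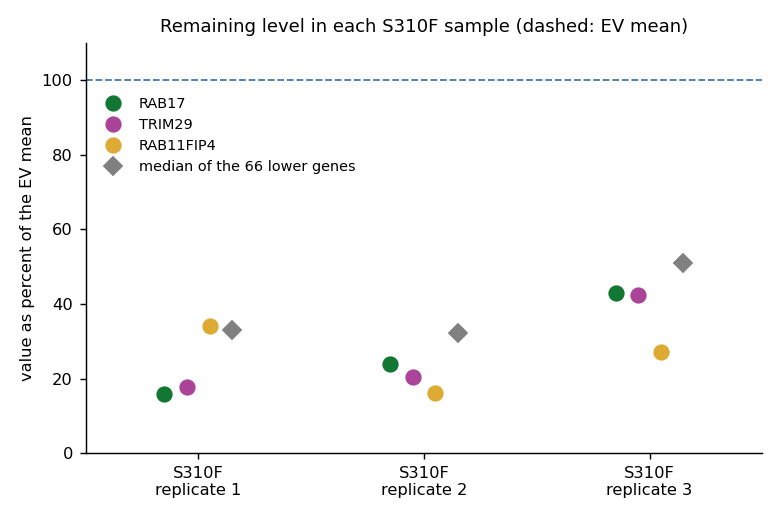
Value in each S310F replicate as a percentage of the EV mean (dashed line at 100) for RAB17, TRIM29 and RAB11FIP4, with the median of the 66 genes listed as lower as grey diamonds. RAB17 and TRIM29, like the diamonds, are highest in replicate 3, at 43.1% and 42.5%, where RAB11FIP4 is at 27.1%.

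Within the table, the 3 genes stood near the lower end of the fold changes. Of the 107 genes tested by limma, 66 (61.7%) fell at an adjusted p under 0.05 with a log2 fold change of -1 or less, and 37 (34.6%) rose by the same limits. With the samples rescaled to equal sums of the listed genes other than ERBB2, 26 fell and 41 rose, and no gene changed direction. All listed genes had been selected as changed, 66 of them as lower. Their sums are thus no neutral reference, and rescaling to them can take out part of a real fall. The same number, 66 (61.7%), had every S310F value below every EV value, and 39 (36.4%) had every S310F value above every EV value. All 3 genes belong to both sets of lower genes, a count that the selection fixed and from which nothing is read. The log2 fold changes of the lower genes had a median of -1.39 and ran from -2.45 to -1.01. RAB17 ranked 4 and TRIM29 ranked 5 from the lowest, between AC131392.1 (-2.07), a pseudogene whose whole transcript aligned to other genes, and CX3CL1 (-1.93), which encodes the chemokine fractalkine. RAB11FIP4 ranked 10, between PSG4 (-1.90), a pregnancy-specific glycoprotein gene, and CD14 (-1.80). These neighbours differed from the 3 genes by less than the standard errors of RAB17 (0.341), TRIM29 (0.324) and RAB11FIP4 (0.293), so the order within this range is not resolved.

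**Figure D3:**
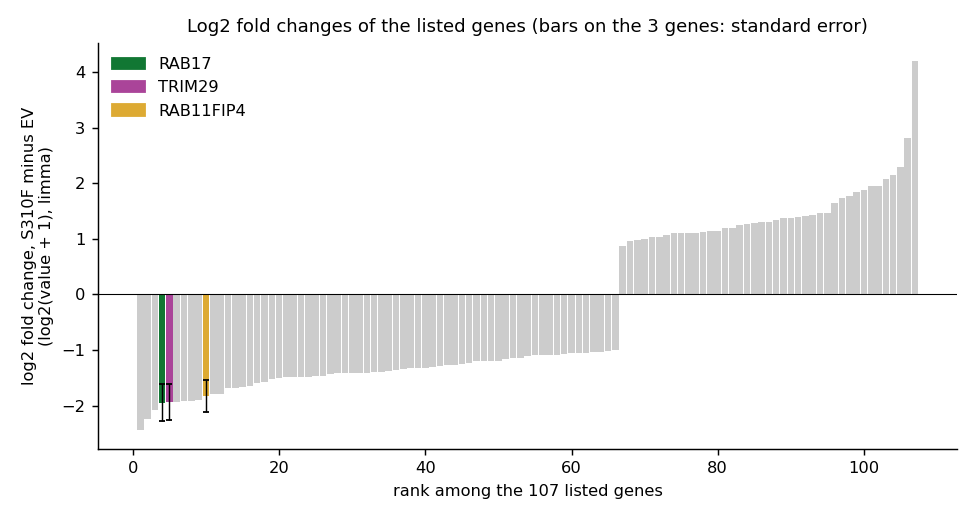
Log2 fold changes (S310F minus EV, limma on log2(value + 1)) of the 107 listed genes in rank order, with RAB17, TRIM29 and RAB11FIP4 in color and their standard errors as black bars. The 3 genes lie at ranks 4, 5 and 10 from the lowest, between -1.95 and -1.83.

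The profiles most like those of the 3 genes were found by the root mean square (RMS) difference over the 6 samples of log2(value + 1), each gene taken relative to its own EV mean. The measure holds the fold change by which the 3 genes were chosen, so genes of like fold change lie close by construction. It does not separate the size of the fall from co-variation among samples. The closest gene to RAB17 was TRIM29, at an RMS difference of 0.15, followed by CD14, the lipopolysaccharide co-receptor, at 0.19 and SAA4, a serum amyloid A gene, at 0.22. The closest to TRIM29 were CX3CL1 at 0.10, CD14 at 0.14 and RAB17 at 0.15. Against these values, the median difference to the other 65 lower genes was 0.54 for RAB17 and 0.50 for TRIM29. RAB11FIP4 was closest to MMP24, a membrane-type metalloproteinase gene, at 0.23, to IGFBP7, a secreted binding protein gene, at 0.29 and to CGNL1, a junction gene, at 0.33, with a median of 0.57. RAB11FIP4 ranked 38 by its likeness to RAB17 and 26 by its likeness to TRIM29. The SD of RAB11FIP4 among S310F samples, 2.20, was no larger than the 2.49 that counting gives. Its ranks and its nearest genes are therefore not resolved from counting error. CD14 had values of 140.0, 155 and 135 in EV and 31.3, 34.2 and 61.3 in S310F replicates 1 to 3, with replicate 3 highest of the S310F samples as in RAB17 and TRIM29. CX3CL1 had 452, 415 and 356 in EV and 86.4, 79.2 and 171 in S310F samples. MMP24 had 315, 336 and 332 in EV and 120, 72.3 and 118 in S310F samples. Shared exon bases limit some of these genes, 21.8% in MMP24 (MMP24OS and AL121753.2), 18.9% in IGFBP7 (POLR2B and IGFBP7-AS1) and 65.5% in SAA4 (SAA2-SAA4). These differences describe 6 samples and are not a test.

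The other genes of the same pathways and families were mostly not among the listed genes. RAB17 was the 1 listed gene of 71 Rab GTPases, RAB11FIP4 the 1 of 49 genes of recycling endosomes and the exocyst, and TRIM29 the 1 of 91 genes of the TRIM family. None of 18 epithelial transcription and splicing factors was listed, the grainyhead-like genes among them, and neither was a ZEB or SNAI gene. Genes outside the table were not analysed here, and nothing follows about their levels. Of the 10 listed genes of the remaining lists, 9 fell and 1 rose by the limits given above, in a table of which 61.7% fell and 34.6% rose. With the samples rescaled to equal sums, 3 of the 10 still fell past the limits (CD14, CGNL1 and KRT17) and 1 rose (AMOTL1). Those sums are no neutral reference, so a gene under the limits after rescaling is not shown to be unchanged. Without S310F replicate 1, CLDN1 was not called. Their adjusted p-values, from limma with Benjamini-Hochberg adjustment over the 107 genes, are not independent evidence, because the authors selected the table on the same samples.

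Of 72 genes of epithelial junctions and polarity 3 were listed, and 2 fell and 1 rose. CLDN1, which encodes the tight junction protein claudin-1, had values of 614, 593 and 531 in EV and 209, 284 and 355 in S310F replicates 1 to 3 (log2 fold change -1.06, adjusted p = 0.00301). CGNL1, which encodes the junction protein paracingulin, had 47.3, 51.1 and 58.6 in EV and 23.9, 9.78 and 19.7 in S310F samples (log2 fold change -1.58, adjusted p = 0.00166). In both CLDN1 and CGNL1 every S310F value lay below every EV value, as in 61.7% of the listed genes. AMOTL1, of the angiomotin family of junction-associated proteins, rose from 27.6 ± 14.0 to 80.3 ± 19.4 (SD, n = 3 each; log2 fold change 1.64, adjusted p = 0.00493 by limma). Its EV replicate 2 (11.6) lay far below EV replicates 1 (37.3) and 3 (33.9). Without EV replicate 2 the log2 fold change of AMOTL1 was 1.12. The other genes of this list were not analysed here.

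Of 25 basal and squamous epithelial genes 3 were listed, TRIM29, ITGB4 and KRT17, and of 68 keratins 2 were, KRT17 and KRT16. All were called lower, as was 61.7% of the table, and TRIM29 had been chosen for its low values. When rescaled, ITGB4 (-0.88) and KRT16 (-0.90) came under the limit on the log2 fold change. ITGB4, the integrin β4 subunit of hemidesmosomes, fell from 86.2 ± 5.83 to 34.9 ± 9.58 (SD, n = 3 each; log2 fold change -1.31, adjusted p = 0.00143 by limma). KRT17 had values of 313, 400 and 383 in EV and 108, 94.8 and 217 in S310F replicates 1 to 3, again highest in replicate 3 of the S310F samples. KRT16 had 50.3, 58.8 and 55.5 in EV and 18.4, 22.5 and 23.0 in S310F samples, with no such gap at replicate 3. KRT16 and KRT17 are basal and stress-associated keratins with near-identical pseudogenes, and 35.9% of the KRT16 and 54.4% of the KRT17 transcript aligned to other genes, so their counts are uncertain. SLC34A2, the phosphate transporter of alveolar epithelium, fell from 57.2 ± 10.8 to 22.5 ± 12.4 (SD, n = 3 each; log2 fold change -1.42, adjusted p = 0.00496 by limma), and stood at -0.996 when rescaled, just under the limit.

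Of 34 mesenchymal transition genes 2 were listed, and both were called lower, as was 61.7% of the table. When rescaled, CDH11 (-0.90) and MMP3 (-0.87) came under the limit on the log2 fold change. CDH11, which encodes a mesenchymal cadherin, had values of 74.5, 71.3 and 69.9 in EV and 21.1, 20.5 and 50.3 in S310F replicates 1 to 3 (log2 fold change -1.33, adjusted p = 0.00460). MMP3, which encodes the matrix protease stromelysin-1, had 47.3, 30.8 and 48.3 in EV and 14.7, 15.6 and 18.6 in S310F samples (log2 fold change -1.30, adjusted p = 0.00150). The log2 fold changes of the 9 lower genes of these lists ran from -1.80 in CD14 to -1.06 in CLDN1. CD14 and RAB11FIP4 (-1.83) differed by less than their standard errors, and with a pseudocount of 10 CD14 stood at -1.59 and RAB11FIP4 at -1.07.

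**Figure D4:**
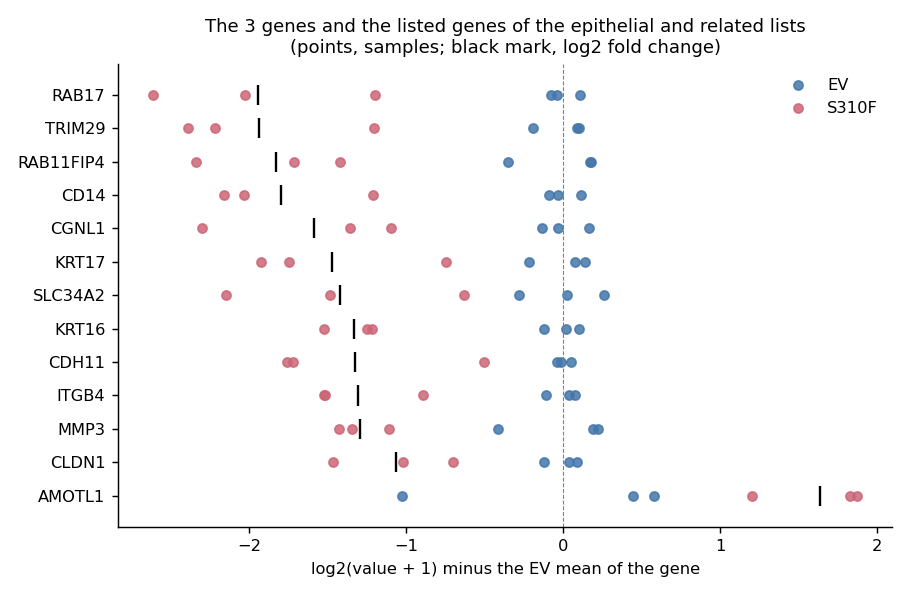
Each sample's log2(value + 1) minus the EV mean of the gene for RAB17, TRIM29, RAB11FIP4 and the 10 other listed genes of the epithelial, mesenchymal and marker lists (blue, EV; red, S310F; black mark, log2 fold change). The black marks of the 3 genes, which were chosen for low values, run from -1.95 to -1.83, next to that of CD14 (-1.80), and AMOTL1 is the 1 gene with a mark above 0 (1.64).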

How the data were processed

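RNA of 3 EV and 3 S310F samples of H1975 was sequenced by Novogene. Aligner, counter and strand setting are not given in the sources used here, and the submitters' processing notes name GRCh38 (hg38). The authors deposited a signal per gene and sample, the read count divided by a size factor. Each of the 107 values of a sample was a whole multiple of 1 read (tolerance 1e-06). Intervals cover counting error only. The deposited log2 fold changes and p-values are the authors' own comparison and were not used, except to count how many rows pass the authors' limits (107 of 107). The deposited gene length, in bases, gave levels per kilobase.

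Groups were compared in R 4.3.3 with limma 3.58.1 on log2(value + 1), over all 107 genes and 6 samples, with moderated variances and Benjamini-Hochberg adjustment. Calls required a log2 fold change of 1 or more in size together with an adjusted p below 0.05. This was tested on simulated data. The counts were not tested as counts with edgeR, since the table holds too few low values for the recovered reads to be accepted as counts. Exon overlap was taken from GENCODE, and shared sequence from BLAST 2.17.0 at 95% identity over at least 100 bases. Promoter windows are from RefSeq. Python 3.11.15, numpy 2.4.6, pandas 2.3.3, scipy 1.17.1 and matplotlib 3.10.9 were used.

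Named were the 3 genes, ERBB2, the 3 genes most like each by RMS difference, the next gene on either side in fold change, and each listed gene of the gene lists. The 3 genes and the lists were chosen with earlier results of these data known. Alternatives were pseudocounts of 0.1 and 10, filters on a mean value of 10 and 50, a mean-variance trend, a replicate block, each sample left out in turn, and samples rescaled to equal totals without ERBB2.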

Additional observations from a re-analysis of the deposited data

How the results depend on the processing

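The log2 fold changes of RAB17, TRIM29 and RAB11FIP4 kept their direction under every alternative run, as did all 107 genes. With a pseudocount of 10 the fold change of RAB11FIP4 was -1.07 in place of -1.83, as a larger constant weighs more on a gene of few reads. When the samples were rescaled to the same sum of listed genes, ERBB2 left out, the median fold change shifted by 0.43. RAB11FIP4 then stood at -1.43, RAB17 at -1.51 and TRIM29 at -1.51, the lower calls went from 66 to 26, and the share of higher calls went from 35.9% to 61.2%. Relative to this shift the 3 genes stood at -1.86, -1.95 and -1.95 in the same order. Rescaling moves every gene by nearly the same amount, so these values lie near the unscaled ones by construction. The listed genes had all been selected as changed, so their sums are no neutral reference. A filter on a mean value of 50 left 75 genes, among them RAB17 but neither TRIM29 nor RAB11FIP4, and 24 in place of 37 higher calls, since fewer genes were tested. A filter at 10 removed no gene. Leaving out 1 sample moved RAB17 between -2.32 and -1.61, TRIM29 between -2.30 and -1.71 and RAB11FIP4 between -2.03 and -1.57, with 54 to 64 lower and 34 to 41 higher calls. Deviations of samples with the same number had correlations over genes of -0.024 to 0.057, and those with different numbers of -0.232 to 0.226. No pairing by number was seen, but 107 genes selected for the group difference cannot show whether the samples were paired. With the replicate number as a block the fold changes were the same, -1.95, -1.94 and -1.83, with 66 lower and 37 higher calls. A count test with edgeR was not run. RAB11FIP4 rests on 4 to 9 reads per S310F sample, which limits its precision.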
